A study of Mus musculus with 6 samples.

Results

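The 7 genes described here encode the classical Fc receptors of the mouse: Fcgr1, Fcgr2b, Fcgr3, Fcgr4, Fcer1g, Fcer1a and Fcgrt. They were chosen by gene name from a deposited count table of 56748 genes, and all 7 were found in it. The table came from bulk RNA sequencing of mouse leukemia cells that carry MLL-AF9, an oncogenic fusion protein known to turn myeloid progenitors into acute myeloid leukemia. There were 3 libraries labelled Rbm5 KO (numbers 31, 32 and 40) and 3 labelled Rbm5 WT (numbers 25, 27 and 29). Both groups carried MLL-AF9, and no other treatment, time or age was labelled. RBM5 is an RNA-binding splicing protein, and the study asked how it bears on the genes that keep MLL leukemia cells renewing. The labels speak of independent replicates but name no animal, and their protocol mentions whole marrow in one place and cultured cells in another. The p-values therefore measure the spread between these libraries, which may be technical.

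Fc receptors bind the constant part of antibodies and link them to the cells of the immune system. The IgG receptors Fcgr1, Fcgr3 and Fcgr4 and the IgE receptor Fcer1a are ligand-binding chains that signal through the common gamma chain, the product of Fcer1g. That chain carries an immunoreceptor tyrosine-based activation motif (ITAM), which Src family kinases phosphorylate and which then recruits the kinase SYK. Fcgr2b is the inhibitory IgG receptor, and its immunoreceptor tyrosine-based inhibition motif (ITIM) recruits the phosphatase SHIP1. Fcgrt encodes FcRn, a relative of MHC class I that pairs with beta-2 microglobulin and returns IgG and albumin from endosomes to the cell surface. Neutrophils, monocytes and macrophages are known to carry Fcgr3 and Fcgr4, and Fcgr1 is typical of monocytes and macrophages.

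The motifs that set the activating adaptor apart from the inhibitory receptor are shown first, because the results below turn on the difference between these chains. They were found by reading the coding sequences of GENCODE M21 transcripts in frame (GRCm38), and the capitals mark the tyrosine codons. The ITAM of Fcer1g lies at chr1:171229889-171230072, minus strand, across exons 4 and 5 of 5. The ITAM of Tyrobp, which encodes the related adaptor DAP12, lies at chr7:30415670-30417382, plus strand, across exons 4 and 5 of 5. The ITIM of Fcgr2b lies at chr1:170961071-170961088, minus strand, in exon 8 of 8.
Fcer1g ITAM: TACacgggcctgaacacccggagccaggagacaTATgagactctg
Tyrobp ITAM: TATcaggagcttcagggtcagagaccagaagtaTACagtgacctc
Fcgr2b ITIM: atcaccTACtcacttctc
Both adaptors hold a pair of tyrosine codons in a stretch of 45 bases, and the inhibitory receptor holds a single one in 18. The short ITIM pattern also matched in Fcgr1, Fcgr4, Fcer1g and Fcgrt, where a match is only a description of the letters.

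Total counts were 26359299 to 31807588 per library. Rbm5 levels in the libraries labelled knockout were not below those in wild type (wild type 205.0 ± 28.1 CPM, knockout 260.4 ± 13.1 CPM, SD over 3 libraries), and both words here stand for the labels. CPM is the usual depth-normalized count, here with TMM-scaled library sizes. The Y-linked gene Ddx3y had 0 counts in each wild-type library and at least 2645 in each knockout library, so sex and the label cannot be told apart. The X-linked transcript Xist had 1625, 1363 and 1269 CPM in wild-type libraries 25, 27 and 29. In knockout libraries 31, 32 and 40 it had 13.0, 192.2 and 32.5 CPM. Why library 32 held more than the other knockout libraries was not tested. Erythroid genes summed to 1.43 to 5.62 CPM over 9 genes and B-cell genes to 13.3 to 33.6 CPM over 10 genes, beside a label of whole marrow. Mature neutrophil genes (12 listed, 0 of them at 0) had summed levels of 651.5 to 2437 CPM in wild-type libraries against 9635 to 17132 CPM in knockout. Monocyte and macrophage genes (15 listed, 0 of them at 0) had sums of 1549 to 2325 CPM and 2219 to 2753 CPM in the same order. In bulk RNA, fewer cells of a type and less RNA per cell cannot be told apart.

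The adaptor Fcer1g was the 1 Fc receptor gene called higher in the libraries labelled knockout, and 0 were called lower. The ligand-binding chains Fcgr1, Fcgr2b, Fcgr3 and Fcgr4 and the transport receptor Fcgrt did not pass the test, and Fcer1a had no counts. Of the 7 genes, 6 passed the filter on low counts. Over all 15963 genes tested with edgeR, 5.45% were called higher and 3.12% lower (8.57% in all) at an adjusted p of 0.05. At an unadjusted p under 0.05, 2 Fc receptor genes were higher (Fcer1g and Fcgr2b) and 0 lower. Of all 15963 genes tested, 2310 were higher and 1983 lower at that threshold. The fitted log2 fold changes, knockout minus wild type, of the 6 tested genes were all above 0, from 0.06 (Fcgr3) to 1.02 (Fcgr1), with a median of 0.40 against -0.01 over all genes tested. Of all 15963 genes tested, 7796 had values above 0. The value of Fcgr3 turned to -0.07 with total counts as the only scaling, and that of Fcgr4 to -0.08 without wild-type library 25. That of Fcgr1 was -0.05 against wild-type library 25 alone. The groups did not overlap for 2 of the 6, against 33.7% of all genes tested.

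**Figure D1:**
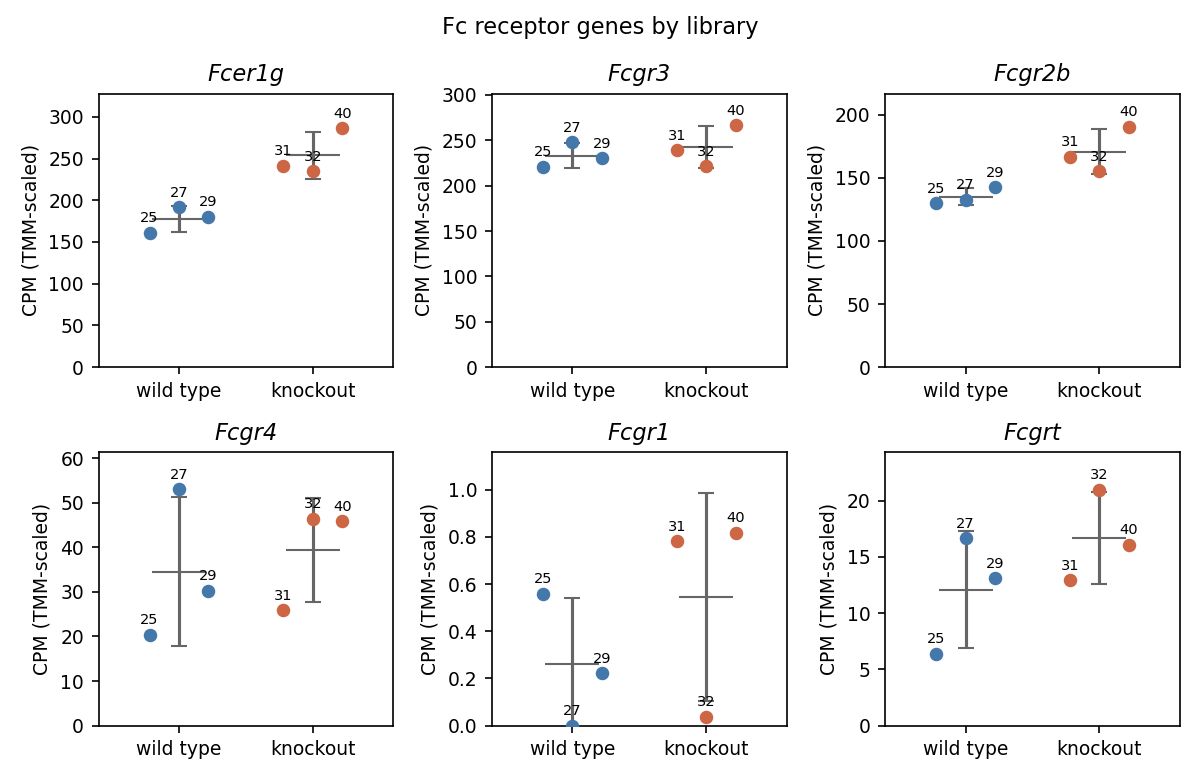
CPM of the 6 detected Fc receptor genes in each library (points, with the library number) by labelled group, with the mean and SD of 3 libraries as a bar and whiskers and a separate linear axis for each gene. All 3 knockout points of Fcer1g and of Fcgr2b lie above all wild-type points, while the groups overlap for the other 4 genes.

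Fcer1g (ENSMUSG00000058715) had 161.2, 191.4 and 180.5 CPM in wild-type libraries 25, 27 and 29. It had 241.3, 234.7 and 286.5 CPM for knockout libraries 31, 32 and 40. Every knockout library stood above every wild-type library, and library 40 was the highest. Wild type averaged 177.7 ± 15.3 CPM, and knockout 254.2 ± 28.2 (SD, n = 3 each). The gene rose 1.43-fold (log2 fold change 0.52 ± 0.11 SE, 95% interval 0.26 to 0.78, edgeR adjusted p = 0.0325). The call was lost when library 25, 27, 29, 31 or 40 was left out (edgeR adjusted p = 0.0893, 0.0601, 0.0741, 0.0693 and 0.101) and with total counts alone (0.0519), while the log2 fold change ranged from 0.42 to 0.57 with 1 library left out. Neutrophil genes stood higher in the same libraries, as given above. Both Fcer1g and the neutrophil sum were lowest in library 25, and within the knockout group both rose in the order 32, 31 and 40. Within wild type Fcer1g was highest in library 27 and the neutrophil sum in library 29. The part of neutrophil genes in the difference was not tested.

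Fcgr3 (ENSMUSG00000059498) encodes the low-affinity activating receptor Fc gamma RIII and was the most abundant of the IgG-binding chains. It had 220.8, 247.9 and 230.0 CPM for wild-type libraries 25, 27 and 29, against 239.4, 221.4 and 266.9 CPM for knockout libraries 31, 32 and 40. The groups overlapped, although library 40 lay above every wild-type value. The means were 232.9 ± 13.8 and 242.5 ± 22.9 CPM (SD, n = 3 each), and the log2 fold change was 0.06 (95% interval -0.17 to 0.29, edgeR adjusted p = 0.758). The sign turned to -0.01 without knockout library 40. The upper limit of the interval lay below the 0.52 fitted for Fcer1g, but the interval of Fcer1g (0.26 to 0.78) overlapped that of Fcgr3.

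Fcgr2b (ENSMUSG00000026656), the inhibitory receptor, had 130.0, 132.6 and 142.5 CPM in wild-type libraries 25, 27 and 29. In knockout libraries 31, 32 and 40 it had 166.8, 155.1 and 190.4 CPM. The groups did not overlap, and library 40 was again the highest. The log2 fold change was 0.34 ± 0.10 SE (95% interval 0.10 to 0.57), but the edgeR adjusted p of 0.0791 missed the threshold. With DESeq2 the adjusted p was 0.0493. With 1 library left out the edgeR adjusted p ran from 0.069 to 0.223, and with total counts alone it was 0.163.

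Fcgr4 (ENSMUSG00000059089), an activating receptor of neutrophils and monocytes, varied more between libraries of a group than between the groups. It had 20.4, 53.0 and 30.3 CPM for wild-type libraries 25, 27 and 29, against 25.9, 46.4 and 45.8 CPM for knockout libraries 31, 32 and 40. The highest and the lowest value were both in the wild-type group. The log2 fold change was 0.19 (95% interval -0.75 to 1.13, edgeR adjusted p = 0.799), and its sign turned to -0.08 without wild-type library 25. It was 0.62 without wild-type library 27 and 0.42 without knockout library 31, and 0.10, 0.05 and 0.07 without library 29, 32 and 40.

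Fcgr1 (ENSMUSG00000015947), the high-affinity receptor of monocytes and macrophages, was close to the limit of detection. It had 19, 0 and 7 counts for wild-type libraries 25, 27 and 29, against 21, 1 and 20 counts for knockout libraries 31, 32 and 40. Library 27 and library 32 held almost none of it, whichever group they belonged to, and the groups overlapped. The fitted log2 fold change of 1.02 had an interval of -1.67 to 3.71 (edgeR adjusted p = 0.616). It was 2.21 without wild-type library 25, 0.46 without wild-type library 27, 0.67 without knockout library 31, 1.57 without knockout library 32 and 0.63 without knockout library 40. Csf1r, the macrophage growth factor receptor and a marker of the same cells, averaged 130.3 ± 32.2 and 278.1 ± 47.1 CPM in wild type and knockout (SD, n = 3 each). Ly6c2, the most abundant of the listed monocyte and macrophage genes, went the other way, at 942.1 ± 276.4 and 766.8 ± 51.7 CPM. Its log2 fold change was -0.30 (edgeR adjusted p = 0.404), while 14 of the 15 listed genes had values above 0.

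Fcer1a (ENSMUSG00000005339), the IgE-binding chain of mast cells and basophils, had 0 counts in each of the 6 libraries. A count of 0 allows up to 0.0882 to 0.123 CPM per library at these depths, taking 3 counts as the limit, which covers counting error only. Ms4a2, which encodes the beta chain of the same receptor, was counted in every library, with averages of 1.42 ± 0.61 CPM for wild type and 2.48 ± 0.23 CPM for knockout (SD, n = 3 each) and no overlap of the groups. Its log2 fold change was 0.80 (95% interval -0.08 to 1.67, edgeR adjusted p = 0.224). Of 10 other mast cell and basophil genes, Tpsb2 and Tpsab1 were at 0 in every library, 5 were tested and 0 were called by edgeR (2 at an unadjusted p under 0.05, Cpa3 and Gata2, both lower). The most abundant were Hdc, the histidine decarboxylase that makes histamine, at 83.0 ± 27.9 and 99.4 ± 59.1 CPM, and Gata2, a transcription factor of stem and mast cells, at 79.9 ± 21.9 and 45.8 ± 17.5 CPM. The basophil protease gene Mcpt8 averaged 20.1 ± 2.4 and 18.4 ± 4.8 CPM in that order. Of all 15963 genes tested, 8.57% were called, and 2310 were higher and 1983 lower at an unadjusted p under 0.05.

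Fcgrt (ENSMUSG00000003420), the gene of FcRn, had 6.41, 16.7 and 13.1 CPM for wild-type libraries 25, 27 and 29, against 12.9, 20.99 and 16.1 CPM for knockout libraries 31, 32 and 40. Library 25 stood lowest and the other 5 overlapped. The log2 fold change was 0.47 (95% interval -0.34 to 1.28, edgeR adjusted p = 0.433). Leaving out library 25, 27 or 32 gave 0.16, 0.75 and 0.27, and setting the knockout libraries against library 25 alone gave 1.36. Its partner B2m was also lowest in library 25, with 284.2 CPM there against 368.3 to 471.7 CPM in the other 5 libraries. B2m had a log2 fold change of -0.07 (edgeR adjusted p = 0.834), which turned to 0.06 without wild-type library 29.

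**Figure D2:**
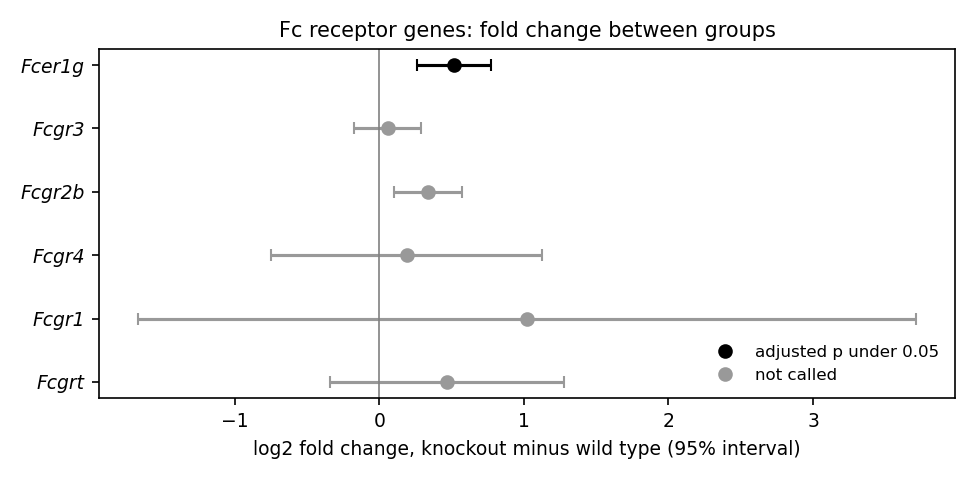
Log2 fold change of the 6 tested Fc receptor genes, knockout minus wild type (points), with 95% intervals from the edgeR fit of 3 against 3 libraries. The intervals of Fcer1g and Fcgr2b lie above 0, and only that of Fcer1g belongs to an adjusted p under 0.05.

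To compare levels between genes, CPM were divided by the table's gene length in kilobases. Over the 6 libraries Fcer1g was highest, at 184.4 to 327.8 CPM per kb, followed by Fcgr3 at 127.2 to 153.7. Fcgr4 (16.2 to 42.2) and Fcgr2b (22.4 to 32.9) came next and overlapped. Fcgrt followed at 3.05 to 9.98 CPM per kb, then Fcgr1 at 0 to 0.316, and Fcer1a was at 0. From Fcer1g down to Fcgr1, and apart from the overlapping pair, the ranges of neighbouring genes did not overlap, while Fcgr1, at 0 in library 27, met Fcer1a at 0. The order of Fcgr4 and Fcgr2b depended on the length used: the table gives Fcgr2b 5790 bases, and its longest protein-coding transcript in GENCODE M21 has 3544.

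The balance of activating to inhibitory receptor was then taken within each library, where library scaling cancels. The ratio of Fcgr3 to Fcgr2b, in counts per kb, was 5.67, 6.24 and 5.38 for wild-type libraries 25, 27 and 29, against 4.79, 4.76 and 4.68 for knockout libraries 31, 32 and 40. Every knockout ratio was below every wild-type ratio, and the log2 difference was -0.28 (exact two-sided permutation p = 0.1, the smallest that 3 against 3 allows). The ratio of Fcgr4 to Fcgr2b overlapped, at 1.18 ± 0.59 in wild type and 1.07 ± 0.33 in knockout (SD, n = 3 each, exact two-sided permutation p = 0.9). The log2 difference of this ratio, -0.08, turned positive without wild-type library 27 or knockout library 31 (0.30 and 0.18).

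The adaptor stood higher relative to Fcgr3, a receptor chain that needs it, in the libraries labelled knockout. This ratio was chosen after the values had been seen. Fcer1g to Fcgr3 was 1.45, 1.53 and 1.56 for wild-type libraries 25, 27 and 29, against 2.00, 2.11 and 2.13 for knockout libraries 31, 32 and 40, in counts per kb. The groups did not overlap, with a log2 difference of 0.46 (exact two-sided permutation p = 0.1, again the smallest possible). Against the other ITAM adaptor, Tyrobp, the groups overlapped over all 6 libraries. Fcer1g to Tyrobp, also chosen after the values had been seen, was 0.602 ± 0.070 in wild type and 0.535 ± 0.023 in knockout (SD, n = 3 each, exact two-sided permutation p = 0.2). The log2 difference was -0.17, and without wild-type library 25 (-0.23) or knockout library 32 (-0.20) the groups did not overlap.

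**Figure D3:**
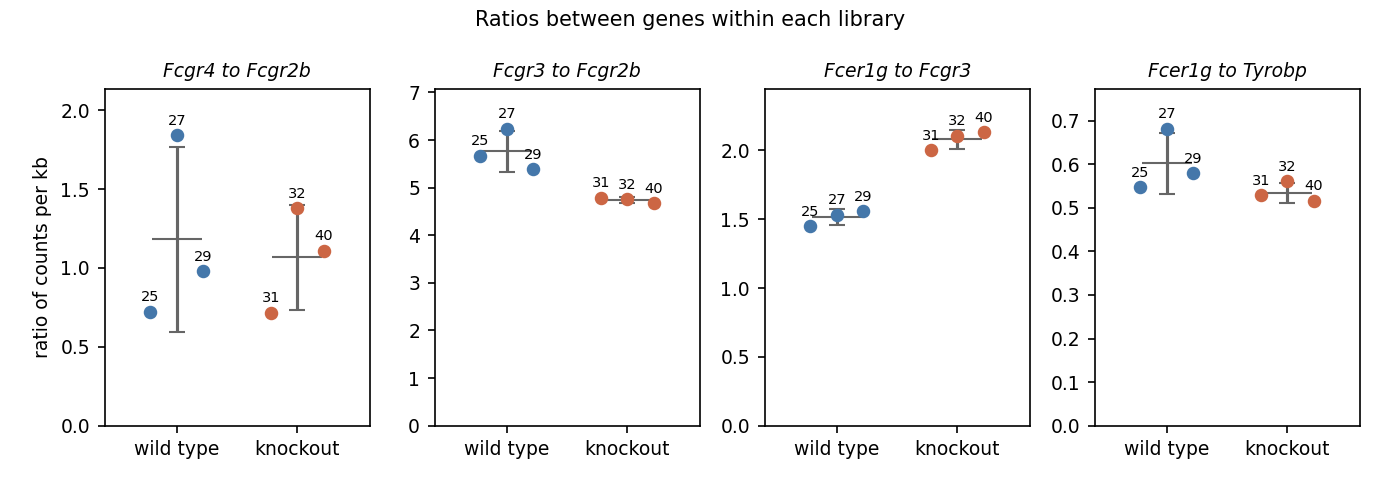
Ratios between pairs of genes within each library (points, with the library number), in counts per kb of the table's gene length, by labelled group, with the mean and SD of 3 libraries. Fcgr3 to Fcgr2b was lower and Fcer1g to Fcgr3 higher in all 3 knockout libraries, while the groups overlap for Fcgr4 to Fcgr2b and Fcer1g to Tyrobp.

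Fcgr2b and Fcgr3 are close copies, which bears on how reads were assigned to them. Their coding sequences were 87.5% identical over 782 aligned bases, against 63.7% to 70.1% for the other pairs among Fcgr1, Fcgr2b, Fcgr3, Fcgr4 and Fcer1a. The longest exact run that both coding sequences share is 129 bases, and it is shown because a read within it cannot be assigned to either gene. It lies in exons 3 and 4 of both transcripts, at chr1:171054167-171057792 for Fcgr3 and chr1:170966674-170968081 for Fcgr2b (GRCm38, minus strand, GENCODE M21, intron between).
Fcgr3 and Fcgr2b shared run: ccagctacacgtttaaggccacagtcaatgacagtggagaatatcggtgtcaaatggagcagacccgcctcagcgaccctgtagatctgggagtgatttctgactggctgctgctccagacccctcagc
Of all windows of 100 bases in the longest Fcgr3 transcript, 3.53% occurred exactly in a transcript of Fcgr2b, and of windows of 31 bases 17.7%. In the other direction the shares were 1.28% and 6.63%. No window of 31 bases or more was shared by any other pair of the 7 genes. The sources used here give no read length. The counts of Fcgr2b and Fcgr3, and every ratio above that uses either of them, Fcer1g to Fcgr3 included, are therefore uncertain.

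Of the 14 tested protein-coding neighbours of the Fc receptor genes 0 were called, against 8.57% of all genes tested. The deposited table names no build, and its coordinates differ from the GRCm38 positions given above, where Fcgr3 spans 171051174 to 171064935. In the coordinates of the table, Fcgr2b (170786186 to 170804116, minus strand), Fcgr4 (170846489 to 170857330, plus) and Fcgr3 (170878743 to 170892504, minus) lie close together on chromosome 1. Fcer1g (171057141 to 171061934) and Fcer1a (173048851 to 173054781) follow on its minus strand. Fcgr1 lies on chromosome 3 (96190225 to 96201285, minus) and Fcgrt on chromosome 7 (44742414 to 44753275, minus). Genes that overlap a member held 27 counts at most over the 6 libraries. Of the 30 protein-coding genes that are the 3 nearest on either side of each member, 14 were tested and 0 were called by edgeR (1 at an unadjusted p under 0.05, Tomm40l). Their log2 fold changes ran from -0.94 (Cfap126) to 0.34 (B4galt3). At an unadjusted p under 0.05, 2310 of all 15963 genes tested were higher and 1983 lower.

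The other ITAM adaptor and several receptors that pair with such adaptors were higher too. Of 13 listed genes 12 were tested, 5 rose (Tyrobp, Clec5a, Trem3, Lilra5 and Cd300ld), 0 fell and 7 did not pass, with a median log2 fold change of 0.95. Of all genes tested, 5.45% were called higher and 3.12% lower. Tyrobp had 224.9, 214.4 and 237.9 CPM for wild-type libraries 25, 27 and 29, against 348.6, 319.6 and 423.6 CPM for knockout libraries 31, 32 and 40. It rose 1.61-fold (log2 fold change 0.69 ± 0.12 SE, edgeR adjusted p = 0.0180), a change beyond the spread within either group. Without wild-type library 25 or 27 its adjusted p was 0.0502 and 0.0550. Clec5a, a lectin receptor that signals through DAP12, went from 9.68 ± 4.03 to 37.7 ± 13.3 CPM (log2 fold change 1.96, edgeR adjusted p = 0.0290), and Trem3 from 63.8 ± 17.3 to 142.3 ± 33.7 CPM. Lilra5 rested on 3, 3 and 0 counts in wild type. With 1 library left out, the number of listed genes called higher was 0 without wild-type library 25 or 27, 1 without knockout library 31 or 40, 3 without wild-type library 29 and 7 without knockout library 32.

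Among kinases and adaptors that carry an activating Fc receptor signal, 26 of 26 were tested, 7 rose, 1 fell and 18 did not pass, with a median of 0.12. Over all genes tested, 5.45% rose and 3.12% fell. The Src family kinases went different ways. Fgr rose from 36.9 ± 6.4 to 147.3 ± 37.9 CPM (log2 fold change 2.00, edgeR adjusted p = 0.00456), and Lyn from 192.2 ± 28.9 to 283.2 ± 29.4 CPM (0.56, adjusted p = 0.0410). Fyn fell by 1.73 on the log2 scale, from 8.99 ± 2.25 to 2.71 ± 0.41 CPM (edgeR adjusted p = 0.0143). Fgr stayed called under each of the 18 alternatives run, whereas Fyn did not without knockout library 40 (0.0616) or against wild-type library 25 alone (0.0541). Lyn lost its call without library 25, 29, 31, 32 or 40, with an adjusted p of up to 0.132.

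Syk, the kinase that docks on the phosphorylated ITAM, rose 1.30-fold, from 332.0 ± 20.2 to 431.7 ± 24.6 CPM (edgeR adjusted p = 0.0467). That call was lost with any 1 library left out, with adjusted p from 0.0616 to 0.151. With all libraries kept it was also lost with RLE factors (0.0503), upper-quartile factors (0.0579), total counts alone (0.101), no robust shrinkage (0.0515) and without haemoglobin, immunoglobulin and mitochondrial genes (0.0525). Prkcd, a protein kinase C, rose 1.61-fold (adjusted p = 0.0225), Pik3cd, a PI3-kinase subunit, 1.35-fold (0.0393) and the adaptor gene Card9 1.37-fold (0.0302). With 1 library left out, Card9 stayed called only without library 25, Pik3cd only without library 32, and Prkcd only without library 27 or 32. Total counts alone also ended the calls of Card9 (0.0846) and Pik3cd (0.0923). With 1 library left out, the number of activating-signal genes that rose was 2 without library 29, 31 or 40 (Fgr among them), 3 without library 25 and 5 without library 27 or 32.

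Of 10 genes listed as opposing the signal, though not each is known only for that, all were tested, 2 rose, 0 fell and 8 did not pass, with a median of 0.16. The shares over all genes tested were 5.45% higher and 3.12% lower. Dok3, an adaptor that restrains SYK signaling in myeloid cells, had a log2 fold change of 0.47 (edgeR adjusted p = 0.0443), and the ubiquitin ligase gene Cbl 0.42 (0.0498). With 1 library left out, 0 or 1 of them was called, and 0 with upper-quartile factors or total counts. Inpp5d, which encodes the SHIP1 phosphatase that binds the Fcgr2b ITIM, averaged 321.3 ± 16.3 and 327.2 ± 37.8 CPM in wild type and knockout (log2 fold change 0.03, 95% interval -0.23 to 0.28, edgeR adjusted p = 0.909).

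Of 12 other genes of antibody receptors and their partners, Ms4a2 and B2m included, 5 passed the filter and 0 were called by edgeR (1 at an unadjusted p under 0.05, and 1 by DESeq2, in both cases Fcrl1). Over all 15963 genes tested, edgeR called 8.57%, and 2310 were higher and 1983 lower at an unadjusted p under 0.05. Pigr, the receptor that carries polymeric antibody across epithelia, and Fcrl6 were at 0 in every library. Fcrl1, an Fc receptor-like gene known from B cells, had 3.56, 2.26 and 2.12 CPM for wild-type libraries 25, 27 and 29, against 6.40, 6.23 and 5.15 CPM for knockout libraries 31, 32 and 40. Its groups did not overlap, and its log2 fold change was 1.16 (95% interval 0.47 to 1.85, edgeR adjusted p = 0.0511).

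**Figure D4:**
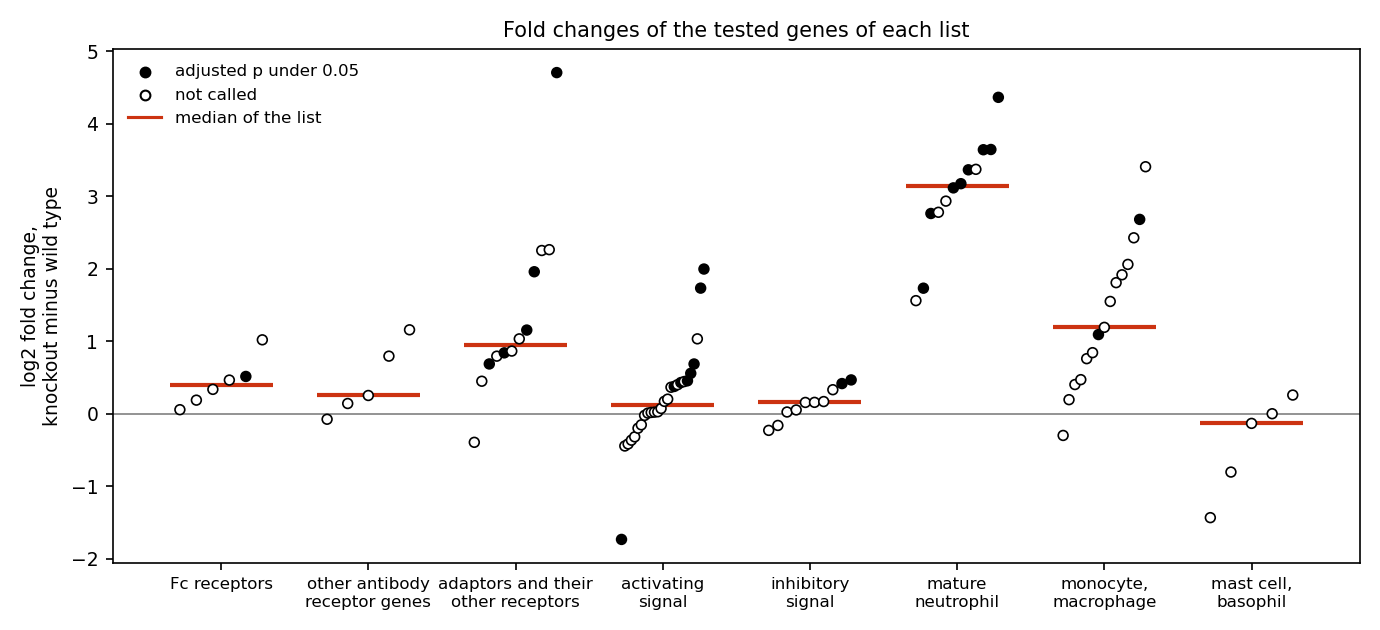
Log2 fold change, knockout minus wild type, of each tested gene of the Fc receptors, 4 related lists and 3 marker lists (filled where the adjusted p was under 0.05, open where not), with a red line at each list's median. The Fc receptor median of 0.40 lies below the 3.15 of mature neutrophil genes and the 1.19 of monocyte and macrophage genes, and above the -0.13 of mast cell and basophil genes.

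Mature neutrophil genes and monocyte and macrophage genes had larger medians than the Fc receptor genes. Of 12 mature neutrophil genes, 8 were called higher, with a median log2 fold change of 3.15. The lowest fitted value, 1.56 for Mmp8, lay above the highest of the 6 Fc receptor genes, 1.02 for Fcgr1. Their 95% intervals overlapped, at 0.20 to 2.92 for Mmp8 and -1.67 to 3.71 for Fcgr1. Of 15 monocyte and macrophage genes, 2 were called higher (Csf1r and Ms4a7), with a median of 1.19. Over all genes tested, 5.45% were called higher. The difference between these lists and the Fc receptor genes was not tested.

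The genes whose profiles were most like each Fc receptor gene over the 6 libraries were ranked by Pearson's r of log2(CPM + 1) among 8949 protein-coding genes with a mean of at least 10 CPM, as a description. For Fcer1g these were Mknk1 (0.999), Wdtc1 (0.998) and Cpne3 (0.997), of which Mknk1 and Cpne3 were themselves called higher in knockout. For Fcgr2b they were Lilrb4b (0.998), Arpc3 (0.995) and Sptlc2 (0.994), none of which was called. For Fcgr3 they were Irak2, Kif18a and Zfp638 (0.972, 0.967 and 0.960). Fcgr4 ran with Tbc1d14 (0.983), Rubcnl (0.981) and the fibronectin gene Fn1 (0.981). Fn1 had 797.0, 3483 and 1362 CPM for wild-type libraries 25, 27 and 29, against 947.3, 2791 and 3603 CPM for knockout libraries 31, 32 and 40, the same division of both groups that Fcgr4 showed. For Fcgrt they were Tmub1, Alg13 and Acox3 (0.983, 0.972 and 0.971), and for Fcgr1 they included Arid5a and Casp9 (0.989 and 0.983), on few Fcgr1 counts. With 6 libraries and so many candidate genes, high values of r arise readily.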

How the data were processed

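The authors deposited 1 table of whole-number counts per gene for 6 libraries, not normalized, with gene names, coordinates and lengths. Per the labels' protocols, RNA was extracted with TRIzol and sequenced by a commercial company. Salmon and limma, and GRCm38 and mm10 as builds, appear without a role, per the submitters' processing notes. The counting method, use of strand and read length were not given in the sources used here. Gene length, a deposited value of another kind, entered only levels and ratios per kb.

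Groups came from the sample titles. Genes were filtered with edgeR's filterByExpr (minimum count 10, minimum total 15), scaled by TMM and tested by edgeR's quasi-likelihood method with robust shrinkage (version 4.0.16 in R 4.3.3), with Benjamini-Hochberg adjustment across the 15963 genes that passed. SEs were derived from each gene's F statistic. Ratios were tested by exact permutation over libraries. Motifs and shared windows came from GENCODE M21 transcripts. Alternatives included DESeq2 1.42.0 and limma-voom (limma 3.58.1). The edgeR procedure was tested on simulated data.

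The members, gene lists and tests were chosen with earlier results of these data known. All 175 listed symbols were found. Named genes were all 7 members, Rbm5, Tyrobp, Ms4a2 and B2m, up to 4 called genes of each related list with the smallest p (or 2 if none was called), the 2 most abundant of each marker list, the 3 nearest protein-coding genes on each side of a member, and the 3 most alike in profile. Other genes of a described list were given as values. Ddx3y, Xist, Mcpt8, Cpa3, Mmp8 and the markers at 0 were added after their values were seen. A few abundant markers that the rule allows are given only within their list's sum. No pair of libraries agreed within sampling noise (lowest chi-square per degree of freedom 44.3). Some genes that this rule names are not reported here.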

Additional observations from a re-analysis of the deposited data

How the results depend on the processing

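Over all genes, 870 were called higher and 498 lower. These counts were 1553 and 1054 with DESeq2, 305 and 148 against wild-type library 25 alone, and 245 to 787 and 102 to 440 with 1 library left out, while 836 were lower with no filter. The single Fc receptor call became 0 with total counts alone or against library 25 alone, 2 with DESeq2 (Fcer1g and Fcgr2b), and 0 to 1 with 1 library left out. The log2 fold change of Fcer1g was 0.52, and it missed the threshold at 0.39 with total counts alone and 0.64 against library 25 alone; with 1 library left out it was 0.42 to 0.57. That of Fcgr2b passed at 0.35 with DESeq2. The sign turned for Fcgr1 against library 25 alone (-0.049) and Fcgr3 with total counts alone (-0.07). With 1 library left out, Fcgr3 ran from -0.014 to 0.12 and Fcgr4 from -0.082 to 0.62, and the log2 difference of Fcgr4 to Fcgr2b from -0.38 to 0.30. B2m turned to 0.41 against library 25 alone and ran from -0.27 to 0.061 with 1 library left out. Among other antibody receptor genes, 1 was higher with RLE factors, DESeq2, or limma-voom with or without quality weights, 2 with no filter, and 0 to 1 with 1 library left out. Among ITAM adaptors and receptors, 3 were higher with no filter or quality weights, 8 with DESeq2, 0 against library 25 alone, and 0 to 7 with 1 library left out. Among activating-signal genes, 3 were higher and 2 lower with total counts alone, 2 were lower with no filter, 2 were higher and 0 lower against library 25 alone, and 2 to 5 were higher and 0 to 1 lower with 1 library left out. Among inhibitory-signal genes, 1 was higher with RLE factors, without robust shrinkage, without haemoglobin, immunoglobulin and mitochondrial genes, without genes on chromosomes X and Y, or with quality weights; 0 were higher with upper-quartile factors, total counts alone or library 25 alone, and 0 to 1 with 1 library left out. With total counts alone, the median over all genes shifted by -0.12 (log2). The cause of these changes was not tested, apart from fewer libraries where some were left out. Library 25 alone is assumed to vary like the knockout libraries. Fcgr1 had no value with a minimum of 1 CPM. The GENCODE length and the Fcer1g ratios were chosen after seeing the data. No paired analysis was possible because the groups share no replicate numbers. Depth limits Fcgr1 and Fcer1a.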
